A study of Homo sapiens with 6 samples.

Results

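The genes examined here encode the enzymes that copy past damaged DNA bases and those that remove alkyl groups from bases directly. They were the 10 genes POLH, POLK, POLI, REV1, REV3L, MAD2L2, RAD18, MGMT, ALKBH2 and ALKBH3, taken by gene symbol from the 16798 genes of the deposited gene table, and all 10 were present. Bulk RNA-seq had been done on COV434 cells, a human line labelled as granulosa cells (GCs), in 3 control samples and in 3 samples exposed to 15 µM 4HC for 24 h. 4HC (4-hydroxycyclophosphamide) is the active metabolite of cyclophosphamide (CTX), and the labels give the genotype of the controls as WT and of the treated samples as CTX. All 6 samples came from the same line, and no source says whether the replicates of a condition were grown separately, so the p-values measure the spread between these samples, which may be technical.

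CTX metabolites add alkyl groups to DNA bases and can join the strands, and the replicative polymerases stall at such lesions. In translesion synthesis (TLS), the ubiquitin ligase RAD18 marks the sliding clamp PCNA at the stalled fork, and low-fidelity polymerases are recruited to it. The Y-family polymerases POLH (pol eta), POLK (pol kappa), POLI (pol iota) and REV1 insert a base opposite the lesion, and pol zeta, built on the catalytic subunit REV3L and the HORMA-domain subunit MAD2L2 (REV7), extends from it. Direct reversal does not need a template. MGMT takes the alkyl group of O6-alkylguanine onto its own cysteine, and the iron-dependent dioxygenases ALKBH2 and ALKBH3 oxidise methyl groups off adenine and cytosine, ALKBH2 mainly in duplex DNA and ALKBH3 in single strands. POLH is also known as a direct target of p53.

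The libraries held 16133786 to 16702316 expected counts each, and the 10 genes had between 222 and 3579 expected counts in any sample. Expression is given as CPM (counts relative to library size, scaled between libraries by the TMM method) as mean ± SD with n = 3, and, where genes are compared with each other, as the deposited TPM, which is scaled to transcript length. Of the 12 granulosa marker genes searched, 10 were in the table, 3 passed the filter on low counts, and none of the 3 passed the test or had an unadjusted p under 0.05 (edgeR). FOXL2, CYP19A1, FSHR, INHBB, NR5A1 and STAR had at most 3 counts in any sample. The tested markers were HSD17B1 at a mean of 22.5 TPM in control and 22.2 TPM in 4HC, AMH at 5.34 and 5.39 TPM and INHA at 1.18 and 0.897 TPM, and INHBA had at most 15 counts in any sample. The granulosa label is the study's own and was not drawn from these values, in which FOXL2, CYP19A1 and FSHR were at or near 0 in both groups. COV434 has been reassigned by others to small cell carcinoma of the ovary, a tumour that lacks SMARCA4 and SMARCA2. SMARCA2 had at most 4 counts in any sample, and SMARCA4 had means of 7.56 TPM in control and 6.69 TPM in 4HC. SMARCA4 did not pass the test (log2 fold change -0.17, edgeR adjusted p = 0.0584, unadjusted p = 0.0221). These are RNA values, and the protein of either gene was not measured.

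The promoters of POLH and REV3L, the genes with the largest rises, and of POLI, which fell, are shown first so that the values below can be set beside them. They run from 250 bases before to 50 bases after the transcription start, read 5′ to 3′ on the gene's strand, from RefSeq on GRCh38.p14, where all 10 genes had an entry and REV3L and MAD2L2 have 2 starts each. Capitals mark matches, on either strand, to the GC box GGGCGG, to TGACNNNGC (the core of the antioxidant response element bound by NRF2), to an E2F site (TTTCCCGC, TTTGGCGC, TTTCGCGC or TTTGCCGC), to CCAAT or to the p53 half-site.
POLH, chr6:43575935-43576234, plus strand: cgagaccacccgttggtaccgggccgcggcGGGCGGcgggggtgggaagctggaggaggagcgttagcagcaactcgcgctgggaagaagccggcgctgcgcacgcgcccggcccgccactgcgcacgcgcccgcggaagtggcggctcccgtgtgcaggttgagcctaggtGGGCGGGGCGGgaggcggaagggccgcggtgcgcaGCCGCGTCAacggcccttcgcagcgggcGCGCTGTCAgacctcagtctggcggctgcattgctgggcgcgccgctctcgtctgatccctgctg
REV3L, upstream start, chr6:111483662-111483961, minus strand: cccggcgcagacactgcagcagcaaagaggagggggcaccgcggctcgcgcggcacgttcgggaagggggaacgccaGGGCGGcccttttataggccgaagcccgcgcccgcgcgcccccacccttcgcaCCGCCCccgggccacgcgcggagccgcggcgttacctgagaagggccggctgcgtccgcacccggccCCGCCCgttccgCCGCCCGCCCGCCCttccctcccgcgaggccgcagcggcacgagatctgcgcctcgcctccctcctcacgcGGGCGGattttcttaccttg
REV3L, downstream start, chr6:111483169-111483468, minus strand: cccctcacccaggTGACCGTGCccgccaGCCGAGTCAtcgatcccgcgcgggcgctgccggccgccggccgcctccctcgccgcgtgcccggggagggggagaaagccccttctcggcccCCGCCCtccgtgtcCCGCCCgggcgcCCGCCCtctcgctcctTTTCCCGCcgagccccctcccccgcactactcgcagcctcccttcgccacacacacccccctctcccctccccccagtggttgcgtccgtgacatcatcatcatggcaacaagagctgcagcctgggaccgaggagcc
POLI, chr18:54269324-54269623, plus strand: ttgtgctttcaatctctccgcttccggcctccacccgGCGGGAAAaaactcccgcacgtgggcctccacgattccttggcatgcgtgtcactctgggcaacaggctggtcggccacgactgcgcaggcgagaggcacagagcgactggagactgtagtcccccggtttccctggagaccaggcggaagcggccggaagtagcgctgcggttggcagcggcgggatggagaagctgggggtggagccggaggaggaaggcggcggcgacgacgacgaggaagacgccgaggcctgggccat

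No p53 half-site was found in any of the 12 windows of the 10 genes, and 6.63% of the 35116 promoters in the table hold one. Sites further upstream or inside a gene were not searched, so this absence covers the windows only. The TGACNNNGC letters occurred in the windows of POLH and REV3L alone among the 10 genes, against 13.3% of all promoters. In POLH they lie at 2 places on the opposite strand, as TGACGCGGC from -43 to -35 and as TGACAGCGC from -15 to -7 relative to the start. An E2F site was found at the downstream start of REV3L and in POLI, against 3.31% of all promoters, CCAAT in MAD2L2 and ALKBH3, against 34.6%, and a GC box, which can overlap the others, in 8 of the 10 genes, against 45.0%. The share of G and C bases ran from 57.7% (RAD18) to 80.7% (REV1) in these windows, beside a median of 58.7% over all promoters. A gene with 2 starts counts once if either window matched, while the shares over all promoters are per window. All sites given here are matches of letters, and binding was not measured.

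In 4HC-treated cells 6 of the 10 genes were higher (POLH, REV3L, RAD18, MAD2L2, MGMT and REV1) and 1 was lower (POLI) at an adjusted p-value under 0.05. Over all 12368 genes tested, 19.2% were higher and 17.1% were lower by the same rule. All 10 genes passed the filter on low counts, and their median log2 fold change was 0.19, beside 0.0047 over all genes tested. Every 4HC sample lay above every control in 7 of the 10 genes and below in 1, while 23.4% and 21.9% of all genes tested separated in these directions. None of the 10 reached a fold change of 2 with p under 0.05, the criteria in the study's methods. In the edgeR fits used here 1.02% of genes passed these upward and 0.129% downward. The study itself reported far more genes by these criteria, and the reason for the difference was not tested. All tests of single genes were made with edgeR's quasi-likelihood test, with Benjamini-Hochberg adjustment over all genes tested.

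**Figure D1:**
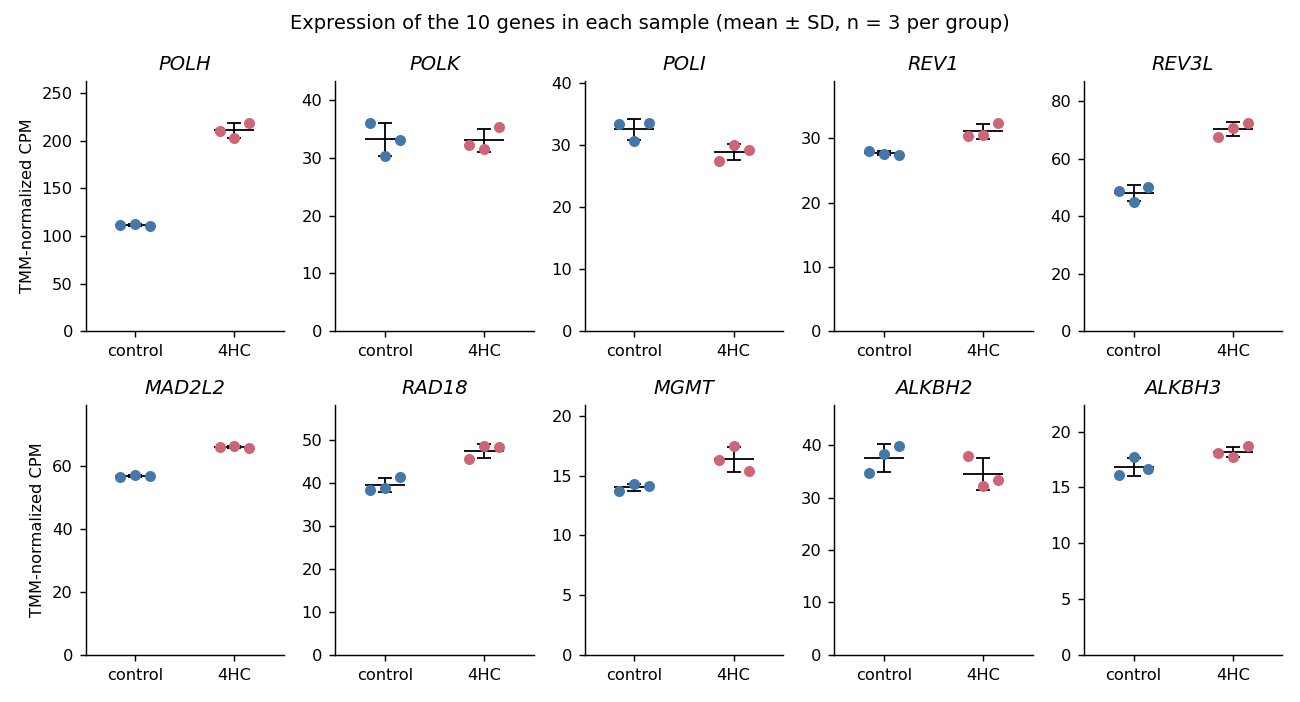
TMM-normalized CPM (y axis, from 0, one scale per panel) of each of the 10 genes in the 3 control (blue) and 3 4HC (red) samples, with the mean (horizontal mark) and SD (error bar). POLH moved from 110.2 to 112 CPM in control to 203 to 219 CPM in 4HC, and POLK and ALKBH2 are the genes whose groups overlapped.

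POLH (NCBI Gene 5429, chromosome 6 of GRCh38, 43576147 to 43620523) encodes pol eta, the polymerase that bypasses ultraviolet photoproducts and is lost in the variant form of xeroderma pigmentosum. Control replicates 1, 2 and 3 gave 111, 112 and 110.2 CPM, and 4HC replicates 1, 2 and 3 gave 210.3, 203 and 219 CPM, the order kept for every gene below. The lowest 4HC sample was therefore above the highest control by more than the spread within either group. The mean rose from 111 ± 1.12 to 211 ± 7.86 CPM, 1.90 times the control level. On the log2 scale the difference was 0.92 (SE 0.038, the standard error, 95% confidence interval 0.85 to 1.00, edgeR adjusted p = 1.32e-26) and ranked 156 from the top of the 12368 genes tested. With any 1 sample left out it stayed between 0.89 and 0.95.

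REV3L (NCBI Gene 5980, chromosome 6, 111299033 to 111602930), the catalytic subunit of pol zeta, had the next largest rise. Its controls were measured at 48.8, 45.1 and 50.3 CPM and its 4HC samples at 67.7, 70.7 and 72.6 CPM, without overlap. The log2 fold change was 0.55 (SE 0.050, 95% confidence interval 0.45 to 0.65, edgeR adjusted p = 4.98e-13), a fold change of 1.46 and a rank of 524. MAD2L2 (NCBI Gene 10459, chromosome 1, 11674480 to 11691559), the other pol zeta subunit, also serves the shieldin complex at double-strand breaks. It was measured at 56.5, 56.9 and 56.7 CPM in control and at 65.8, 66.0 and 65.5 CPM in 4HC, the tightest replicates of the 10 genes. The difference was 0.21 on the log2 scale (SE 0.047, edgeR adjusted p = 0.000259).

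The RNAs of the pol zeta subunits were present in unequal amounts, and protein was not measured. By length-scaled TPM, REV3L was the lowest of the 10 genes in control (7.17 ± 0.419 TPM, n = 3) and MAD2L2 the highest (113 ± 0.621 TPM). The control samples held 15.6, 16.8 and 15.1 units of MAD2L2 TPM for each unit of REV3L TPM, and the 4HC samples 12.96, 12.56 and 12.10. The ratio was thus lower in each 4HC sample than in each control (exact permutation test, two-sided, p = 0.1, the smallest that 3 against 3 allows). Of the accessory subunits that pol zeta shares with the replicative polymerase delta, POLD3 rose from 45.5 ± 2.71 to 59.4 ± 3.66 CPM (a log2 difference of 0.39, SE 0.054, edgeR adjusted p = 6.19e-08). POLD2 was at 97.7 ± 4.52 and 102.5 ± 4.61 CPM and did not pass (adjusted p = 0.221).

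REV1 (NCBI Gene 51455, chromosome 2, 99400477 to 99490123) places cytosine opposite lesions and acts as a scaffold for the other TLS polymerases. It was measured at 28.0, 27.6 and 27.5 CPM in control and at 30.3, 30.6 and 32.4 CPM in 4HC. The groups did not overlap, and the log2 fold change was 0.17 (SE 0.061, 95% confidence interval 0.04 to 0.29, edgeR adjusted p = 0.0271). Leaving out control replicate 1, 2 or 3 ended this call (adjusted p = 0.0513, 0.0578 and 0.0806 in that order), as did leaving out 4HC replicate 3 (0.116) or using DESeq2 in place of edgeR (0.126).

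POLI (NCBI Gene 11201, chromosome 18, 54247154 to 54321266), a highly error-prone Y-family enzyme, was the gene of the 10 that fell. It was measured at 33.3, 30.6 and 33.6 CPM in control and at 27.5, 30.0 and 29.2 CPM in 4HC, with all treated samples below all controls but 4HC replicate 2 close to control replicate 2. The log2 fold change was -0.17 (SE 0.061, 95% confidence interval -0.30 to -0.05, edgeR adjusted p = 0.0232). It no longer passed when control replicate 1 or 3 was left out (adjusted p = 0.0790 and 0.105), when 4HC replicate 1 was left out (0.103) or with DESeq2 (0.0880). POLK (NCBI Gene 51426, chromosome 5, 75511891 to 75601144), which extends from mismatched ends and copies past bulky adducts on guanine, showed no detectable difference. Its controls at 36.1, 30.3 and 33.1 CPM enclosed its 4HC samples at 32.2, 31.6 and 35.3 CPM. The log2 fold change of POLK was -0.0066, with a 95% confidence interval of -0.13 to 0.12 (edgeR adjusted p = 0.947).

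**Figure D2:**
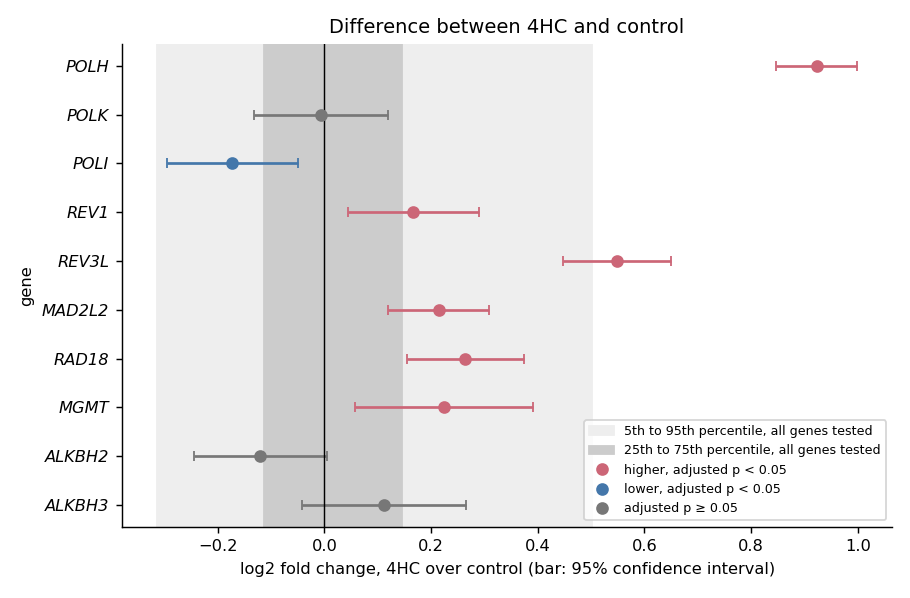
Log2 fold change of 4HC over control (x axis) for each of the 10 genes (y axis), with its 95% confidence interval as a bar, in red where higher, blue where lower and grey where the adjusted p-value was 0.05 or above. The bands mark the 5th to 95th percentile (-0.31 to 0.50) and the 25th to 75th percentile (-0.11 to 0.15) of all genes tested, and POLH at 0.92 and REV3L at 0.55 lie beyond both.

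The 4 Y-family genes are the only genes of the table whose deposited protein-family annotation gives the impB/mucB/samB domain. Their TPM values summed to 71.5, 69.7 and 69.2 in control and to 101, 93.6 and 106 in 4HC. Without POLH the sums were 34.6, 32.2 and 33.0 in control and 32.1, 30.6 and 34.4 in 4HC, and the groups overlapped. POLH held 51.7%, 53.8% and 52.3% of the family's TPM in the controls and 68.1%, 67.3% and 67.4% in the 4HC samples. Its mean share was 52.6% ± 1.09 in control and 67.6% ± 0.433 in 4HC (n = 3 each), 15.0 percentage points more (exact permutation test, two-sided, p = 0.1, the smallest possible). The mean share of POLI went from 19.9% ± 0.498 to 11.8% ± 0.24, of POLK from 13.2% ± 1.02 to 9.17% ± 0.166 and of REV1 from 14.3% ± 0.424 to 11.4% ± 0.509. The summed TPM of the family was not constant, and when the POLH share is larger the shares of the other genes must be smaller in sum, though not each.

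The levels of the genes per length ranked in control as MAD2L2, ALKBH2 (77.7 ± 5.25 TPM), POLH (36.9 ± 0.65 TPM), MGMT (28.2 ± 1.54 TPM), ALKBH3 (20.95 ± 0.927 TPM), POLI (14.0 ± 0.472 TPM), RAD18 (13.7 ± 0.38 TPM), REV1 (10.0 ± 0.304 TPM), POLK (9.24 ± 0.831 TPM) and REV3L. The neighbours POLI and RAD18, and REV1 and POLK, overlapped between their samples. In 4HC the mean of POLH was 67.5 ± 4.17 TPM and that of ALKBH2 70.2 ± 7.51 TPM, with overlapping samples. RAD18 in 4HC stood at 16.2 ± 0.433 TPM, above POLI at 11.8 ± 0.849 TPM without overlap.

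RAD18 (NCBI Gene 56852, chromosome 3, 8877075 to 8969249), the ligase that opens the pathway, was measured at 38.5, 38.8 and 41.4 CPM in control and at 45.6, 48.6 and 48.5 CPM in 4HC. Its log2 fold change was 0.26 (SE 0.054, 95% confidence interval 0.15 to 0.37, edgeR adjusted p = 9.88e-05), between 0.24 and 0.30 with each sample left out. Its substrate PCNA rose from 275 ± 5.97 to 567 ± 6.82 CPM (a log2 difference of 1.04, SE 0.032, edgeR adjusted p = 6.87e-32). The ubiquitin-conjugating partners of RAD18 did not pass the test: UBE2A was at 149.6 ± 4.84 and 155 ± 3.92 CPM (adjusted p = 0.308) and UBE2B at 55.7 ± 0.164 and 58.1 ± 0.75 CPM (adjusted p = 0.335). USP1, which removes the ubiquitin from PCNA, was at 303 ± 11.4 and 308 ± 3.89 CPM (adjusted p = 0.633).

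Among all 16 genes listed for PCNA ubiquitination and its reversal, 5 rose, 1 fell and 10 did not pass, with a median log2 fold change of 0.04, beside 19.2% higher and 17.1% lower over all genes tested. Without control replicate 2 or without 4HC replicate 3, 2 genes of the list were lower. Beside PCNA, the PCNA-binding protein PCLAF rose by 0.63 on the log2 scale (SE 0.043), and ATAD5, which unloads PCNA, by 0.58 (SE 0.064). DTL (log2 fold change 0.53) and RFWD3 (0.28) were also higher, and USP7 was lower (-0.17), these 3 being outside the naming rule and picked once their values were known. The summed TPM of this list was 1209 to 1264 in control and 1722 to 1774 in 4HC, of which PCNA alone contributed a mean of 434 and 890.0 TPM.

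MGMT (NCBI Gene 4255, chromosome 10, 129467241 to 129772725) was the reversal gene that rose. It was measured at 13.7, 14.3 and 14.1 CPM in control and at 16.4, 17.5 and 15.4 CPM in 4HC, so that all treated samples lay above the controls. The log2 fold change was 0.22 (SE 0.083, 95% confidence interval 0.06 to 0.39, edgeR adjusted p = 0.0287). MGMT did not pass when control replicate 1 or 3 was left out (adjusted p = 0.0925 and 0.0649), when 4HC replicate 1 or 2 was left out (0.0600 and 0.154) or with DESeq2 (0.133).

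ALKBH3 (NCBI Gene 221120, chromosome 11, 43880831 to 43920274) was measured at 16.1, 17.7 and 16.7 CPM in control and at 18.1, 17.8 and 18.7 CPM in 4HC. The groups separated by a narrow margin, and the log2 fold change of 0.11 did not pass the test (95% confidence interval -0.04 to 0.27, edgeR adjusted p = 0.263). ALKBH2 (NCBI Gene 121642, chromosome 12, 109088189 to 109093631) was at 34.6, 38.3 and 39.8 CPM in control and at 38.0, 32.3 and 33.4 CPM in 4HC, with overlap. Its log2 fold change was -0.12 (95% confidence interval -0.24 to 0.0040, edgeR adjusted p = 0.126). ALKBH2 passed as lower when its lowest control, replicate 1, was left out (-0.18, adjusted p = 0.0363) and when its highest 4HC sample, also replicate 1, was left out (-0.20, adjusted p = 0.0165).

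Of the 7 other AlkB family dioxygenases tested, 1 rose, 1 fell and 5 did not pass, with a median log2 fold change of -0.02. ALKBH6 was at 7.44 ± 0.361 CPM in control and 9.26 ± 0.484 CPM in 4HC (log2 fold change 0.32, edgeR adjusted p = 0.0207), and ALKBH7, a mitochondrial member, at 29.9 ± 1.96 and 26.3 ± 0.912 CPM (-0.18, adjusted p = 0.022). With DESeq2, without control replicate 1 and without 4HC replicate 1, 0 genes of this list were higher and 0 lower. Without 4HC replicate 2 the higher count was also 0, and without 4HC replicate 3 it was 2. Of 6 genes for the ASCC helicase complex that works with ALKBH3 and for the deubiquitinases of the ALKBH proteins, the helicase ASCC3 rose from 219.8 ± 9.09 to 282 ± 5.36 CPM (log2 fold change 0.36, adjusted p = 3.98e-12), while the deubiquitinases OTUD4 (-0.21) and USP9X (-0.24) fell. Without 4HC replicate 3, 2 genes of this list were higher.

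Alkylated bases can also be removed by base excision. MPG, the glycosylase that cuts out alkylated purines, was at 57.0 ± 2.39 CPM in control and 57.9 ± 2.34 CPM in 4HC (edgeR adjusted p = 0.778). Of the 6 genes of that list 0 rose and 3 fell, beside 19.2% higher and 17.1% lower over all genes tested, with a median log2 fold change of -0.12. Among those that fell were the ligase LIG3 (log2 fold change -0.26) and the abasic-site nuclease APEX1 (-0.17), which act after the glycosylase. With DESeq2, without control replicate 2 or without 4HC replicate 1, 4 genes of this list were lower.

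Other specialised polymerases and fork restart enzymes gave 3 higher and 0 lower genes of 8 tested with edgeR, with a median log2 fold change of 0.03. The lower count was 1 without control replicate 1 or without 4HC replicate 3, and the higher count was 2 with DESeq2 or without control replicate 1. SMARCAL1 (log2 fold change -0.15, adjusted p = 0.0597) was the 1 gene of the list lower at an unadjusted p under 0.05 (0.0227), and was picked once its values were known. POLQ, the polymerase of microhomology-mediated end joining, rose from 45.1 ± 2.86 to 71.6 ± 3.1 CPM (a log2 difference of 0.67, SE 0.052, edgeR adjusted p = 1.28e-15). The primase-polymerase PRIMPOL, which restarts synthesis beyond a lesion, rose by 0.27, and POLL, a gap-filling polymerase of end joining, by 0.21. Of the 9 genes for partners of MAD2L2 outside TLS, 1 rose (CHAMP1, 0.33) and 1 fell (TP53BP1, -0.14), and the 3 shieldin genes SHLD1, SHLD2 and SHLD3 were among the 7 that did not pass. Over all 54 genes of these 7 lists, 12 rose (22.2%) and 8 fell (14.8%), near the 19.2% and 17.1% over all genes tested, and the median log2 fold change was 0.0088.

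**Figure D3:**
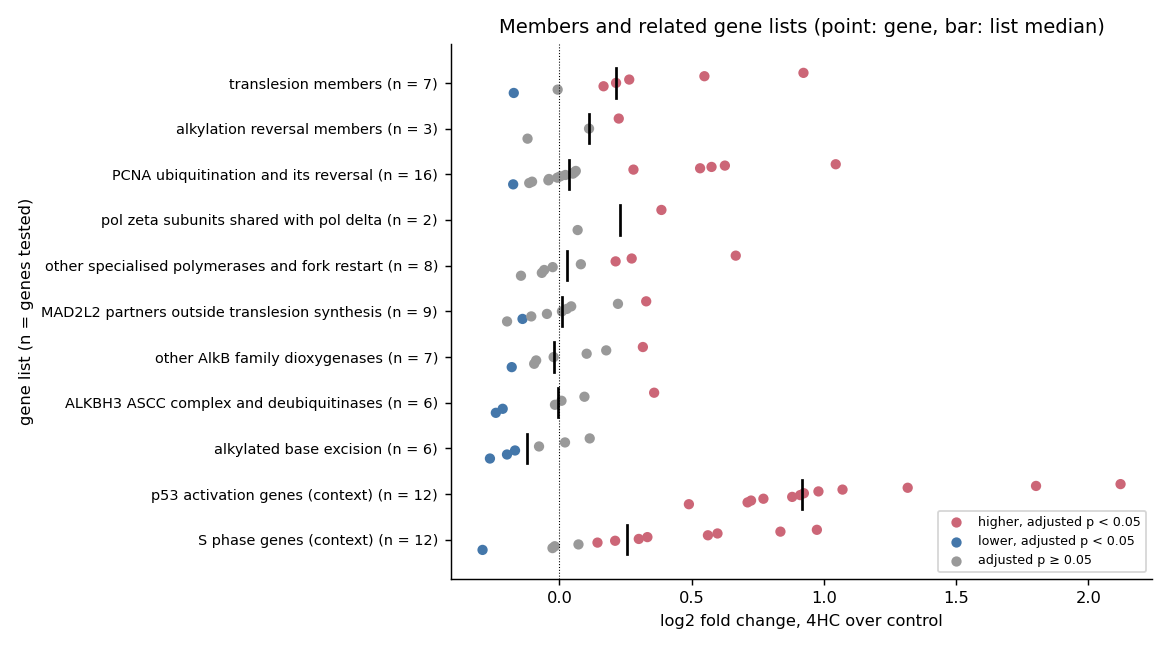
Log2 fold change of 4HC over control (x axis) for every tested gene of each list (y axis, n in brackets), each point 1 gene and each black bar the median of its list. The medians of the 7 related lists lie between -0.12 and 0.23, those of the p53 activation and S phase genes at 0.92 and 0.26.

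p53 activation genes and S phase genes moved in the same samples. All 12 p53 activation genes were higher, among them CDKN1A (log2 fold change 1.80), GDF15 (2.12) and FDXR (1.32), and their summed TPM was 716 to 735 in control and 1687 to 1767 in 4HC. POLH is the member of the 10 that the deposited annotation places in the p53 pathway hallmark, which lists 194 genes of the table. Of the 12 S phase genes 8 were higher and 1 lower. Their summed TPM was 1126 to 1159 in control and 1420 to 1459 in 4HC. Over all genes tested, 19.2% were higher and 17.1% lower. TYMS alone had means of 270 TPM in control and 395 TPM in 4HC, while MCM6 fell (log2 fold change -0.29). MCM3, MCM5 and GINS2 did not pass, and the S phase genes named here were picked once their values were known. Of the other cell type markers, 4 of stroma, 1 of epithelium and 1 of leukocytes were tested with edgeR, and 0 passed, also at an unadjusted p under 0.05. The summed TPM of the stromal markers was 135 to 144 in control and 136 to 137 in 4HC. COL3A1 (means of 85.1 and 82.9 TPM) and LUM (43.2 and 42.1 TPM) held most of it, while PDGFRA had at most 7 counts. EPCAM, CDH1 and CD74 had at most 4 counts in any sample, but KRT8 reached 122, PTPRC 43, KRT18 13 and LYZ 11.56. In bulk RNA a change in the share of cells in a phase and a change of RNA per cell cannot be told apart. The part of the p53 activation or S phase genes in the differences of the 10 genes was not tested.

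The expected counts deposited for single transcripts show which RNAs carried these genes. RSEM-type counting divides the reads that transcripts share, so these values are less certain than those of genes, and 1.29% of the 42216 transcripts tested passed an adjusted p-value of 0.05, against 36.4% of genes. The 10 genes had 61 transcripts in the table, of which 46 were tested, 3 were higher (against 0.706% of all transcripts) and 0 were lower (against 0.587%). Over the same 46, 7 had an unadjusted p under 0.05. With 1 sample left out, 1 transcript passed, or 0 without control replicate 3.

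Of the 6 transcripts of POLH, NM_006502 held most of the counts, with 1030, 932 and 998 expected counts in control and 2059, 2006 and 1814 in 4HC. It rose by 0.99 on the log2 scale (SE 0.062, adjusted p = 0.00472 by edgeR over transcripts). XM_005249186 followed with 425, 401 and 355 counts in control and 699, 646 and 711 in 4HC (log2 fold change 0.80, adjusted p = 0.0226). XM_024446467, at 274, 327 and 273 counts in control and 486, 409 and 575 in 4HC, had a log2 fold change of 0.75 and did not pass (adjusted p = 0.101). The shares stayed close between groups, 54.3% ± 3.07 and 56.9% ± 5.42 of the gene's counts for NM_006502 and 21.7% ± 2.09 and 19.8% ± 0.238 for XM_005249186.

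**Figure D4:**
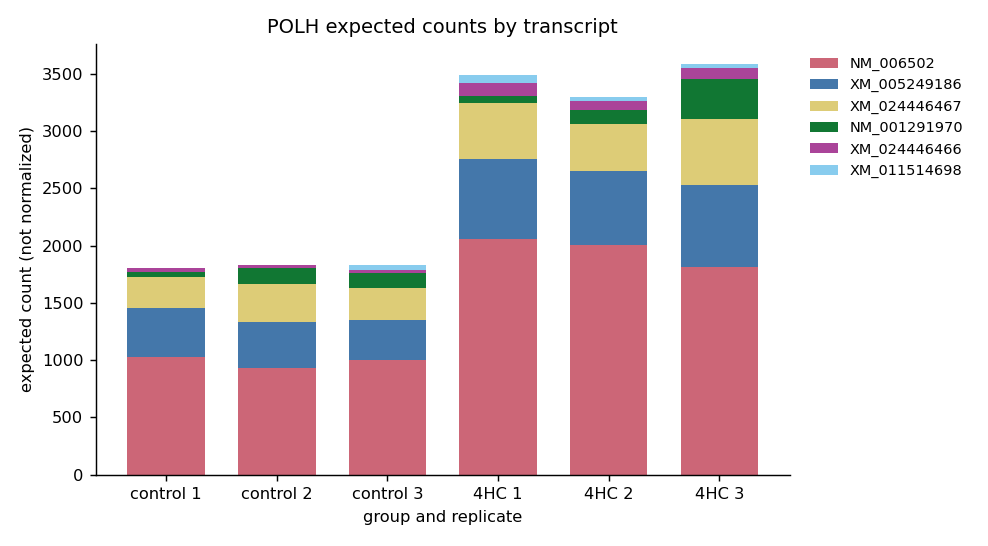
Expected counts of POLH (y axis, not normalized) in every sample (x axis), stacked by the 6 transcripts of the deposited table. NM_006502 makes up 54.3% of the counts on average in control and 56.9% in 4HC.

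MAD2L2 was carried almost wholly by NM_006341, with 94.9% ± 0.769 of its counts in control and 95.2% ± 0.696 in 4HC (log2 fold change 0.22, adjusted p = 0.0434 by edgeR over transcripts). For REV3L, NM_001372078 held 67.3% ± 4.24 and 72.1% ± 20.1 of the counts, and its log2 fold change of 0.64 did not pass (adjusted p = 0.286). Of its other transcripts, XM_011536030 held 12.5% ± 8.12 and 2.68% ± 4.64, and NM_001286432 13.7% ± 8.08 and 10.1% ± 10.2. The MGMT counts fell mostly on XM_005252682, at 74.4% ± 3.33 in control and 76.7% ± 0.978 in 4HC (log2 fold change 0.27, adjusted p = 0.514), and the rest on NM_002412 (25.6% and 23.3%). RAD18 was divided between NM_020165, with 78.3% ± 4.96 and 79.7% ± 0.461 (log2 fold change 0.29, adjusted p = 0.26), and XM_017006873, with 21.7% and 20.3%. POLK was carried by NM_001387113 (91.1% ± 1.82 and 87.4% ± 13.6), and ALKBH3 has NM_139178 as its 1 transcript in the table. For ALKBH2, NM_001145374 held 46.6% ± 7.16 and 46.6% ± 7.05, NM_001001655 15.2% and 19.4%, and NM_001205179 11.2% and 8.75%. The counts of POLI and REV1 were scattered over 12 and 14 transcripts, and no transcript of either passed the test. In POLI, XM_024451081 held 26.8% ± 4.84 in control and 26.01% ± 1.43 in 4HC, NM_001351612 17.8% ± 9.8 and 15.4% ± 5.97, and NM_007195 15.3% ± 15.0 and 29.01% ± 9.59. In REV1, NM_016316 held 34.1% ± 8.66 and 22.2% ± 8.91, NM_001037872 12.6% ± 18.0 and 23.1% ± 8.94, XM_017004312 12.3% ± 5.29 and 3.46% ± 6.0, and XM_017004310 6.92% ± 5.63 and 15.5% ± 8.4. NM_007195 had 0, 79.8 and 167 counts in the 3 controls, and no isoform change could be read from shares that vary this much within a group.

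Some genes lie over or beside these loci, and the sources used here do not say whether the reads kept their strand. MAD2L2 shares 5016 bases of its deposited span with DRAXIN, whose mean CPM was 0.307 in the controls against 7.51 after 4HC (log2 fold change 4.58, edgeR adjusted p = 1.15e-21), beside a gain of 9.08 CPM for MAD2L2. No GENCODE 29 gene overlaps MAD2L2, so this overlap rests on the deposited spans alone. Whether reads of DRAXIN or MAD2L2 were counted for the other was not tested. XPO5, the nuclear exporter of microRNA precursors, starts 74 bases from the GENCODE 29 start of POLH on the opposite strand, inside the POLH window printed above, and was examined after its values were seen. It fell from 155 to 126 CPM (log2 fold change -0.30, adjusted p = 1.54e-08) while POLH rose. The other genes with overlapping deposited spans that were tested had log2 fold changes of -0.19 (CERT1, over POLK), -0.16 (POLR1C, over POLH), -0.09 (EIF5B, over REV1), -0.01 (NDUFA10, over REV1), 0.04 (GTPBP2, over POLH) and 0.05 (MFSD4B, over REV3L), and TRAF3IP2, over REV3L, was not tested. The deposited spans of POLR1C (944 kb) and NDUFA10 (239846 kb) are implausibly long, which leaves those overlaps uncertain. The gene positions given above are also the deposited ones, and those of REV3L and POLI reach upstream of the printed start windows. Neither TRAF3IP2 nor MFSD4B overlaps REV3L in GENCODE 29, so these overlaps are uncertain too. In GENCODE 29, 7 of the 10 genes have an annotated antisense gene, and a processed pseudogene of POLH, POLHP1, is annotated. Whether reads of POLH were assigned to it was not tested.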

How the data were processed

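RNA-seq of COV434 cells gave 3 control and 3 4HC samples, grouped by their labels. The authors filtered reads with SOAPnuke and used the Dr. Tom system, and the submitters' processing notes name HISAT2, Bowtie2, RSEM 1.3.1, DESeq2 1.4.5 and GRCh38.p13. The authors deposited expected counts, TPM and FPKM per gene, and expected counts per transcript. Their fold change, p and q columns, and a second gene table that repeats the first, were not used. Expected counts, of which 85.5% were whole, were rounded to whole numbers, filtered with filterByExpr, scaled by TMM and tested with edgeR 4.0.16 (quasi-likelihood, condition as the only term, Benjamini-Hochberg adjustment, threshold 0.05) in R 4.3.3, after a check on simulated data. Depth was 16133786 to 16702316 counts, and the number of counts behind a gene limits its precision.

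Exact permutation tests used scipy 1.17.1. Alternatives were DESeq2 1.42.0, its size factors, library size only, no filter, a minimum of 10 counts, limma 3.58.1 on log2(TPM + 1), log2(TPM + 0.1) and log2(FPKM + 1), a replicate block, and each sample left out. Members, lists and tests were chosen with earlier results of these data known. The text names all 10 members, up to 3 genes per other list with the largest change among those called, a fixed set (PCNA, UBE2A, UBE2B, USP1, POLD2, POLD3 and MPG), transcripts with at least 10% of their gene's counts and overlapping genes. Of the list genes 2 granulosa markers, AMHR2 and CYP11A1, were absent from the table used here. One gene that this rule would name is not reported here. Promoters were taken from RefSeq and neighbouring genes from GENCODE 29. Strandedness of the libraries is not given in the sources used here.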

Additional observations from a re-analysis of the deposited data

How the results depend on the processing

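POLH, REV3L, RAD18 and MAD2L2 kept their direction and their call under every alternative run. Of the 10 genes, 6 were called higher, against 4 to 6 under the alternatives, and 1 was called lower, against 0 with DESeq2 and 0 to 1 with each sample left out. Without control replicate 1 or without 4HC replicate 1, the gene called lower was ALKBH2 in place of POLI. Over all genes, limma on log2(FPKM + 1) called 1343 lower, against 2118. POLK, which was never called, changed sign with library size only (0.014) and with limma on log2(FPKM + 1) (0.015), and ranged from -0.068 to 0.055 with each sample left out. Beside the losses given with each gene, REV1 was not called by limma on log2(TPM + 1) or log2(TPM + 0.1), with adjusted p = 0.0686 and 0.0674.

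Of the transcripts of the 10 genes, 3 were called higher, against 5 with a minimum of 10 counts, 6 with DESeq2 and 0 to 1 with each sample left out. Correlations of deviations from the group mean were 0.00866, 0.0694 and 0.0302 between same-numbered samples, and -0.08 to 0.0455 between other numbers. Centring within groups of 3 ties these values to each other, so they do not settle whether replicate numbers pair the samples. With the replicate block 6 of the 10 genes were still called higher and 1 lower, but 0 transcripts, and NM_001286432 of REV3L changed to -0.37. The cause was not tested. With each sample left out, the uncalled transcripts that changed sign ranged from -0.17 to 0.067 (NM_001387113 of POLK), from -0.73 to 0.16 (NM_001351612 of POLI), from -0.94 to 0.69 (NM_001286432), from -0.0082 to 0.16 (NM_002412 of MGMT) and from -0.13 to 0.45 (NM_001001655 of ALKBH2). MGMT, POLI and REV1, whose calls were lost most often, had 222 to 283, 455 to 557 and 449 to 530 counts a sample, and the part of depth was not tested.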
